A study of Mus musculus with 1528 samples.

Results

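Prostaglandins, thromboxane and leukotrienes are signaling lipids made from arachidonic acid, and the genes described here encode the enzymes that make or inactivate them. The set of 10 genes was *Ptgs1*, *Ptgs2*, *Hpgds*, *Ptges*, *Tbxas1*, *Hpgd*, *Alox5*, *Alox5ap*, *Alox15* and *Ltc4s*, taken by name from the 55421 genes of the count table. All 10 had fragments in the cells. The cells were bone marrow–derived macrophages (BMDMs), macrophages grown from marrow in CSF1, of wild-type mice with no engineered allele, of the strain C57BL/6 in the labels and C57BL/6J in the study's methods. Cells of 2 mice, whose age the labels do not give, received the cytokines for 24 h at 10 ng/ml each. The treatments were IL4+IL13 and IL4+IL13+TNF, so that IL4 and IL13 were present in both treatments and TNF in 1 of them. Living single cells were sorted into 4 plates and sequenced with Smart-seq2, a full-length method without molecular identifiers. No unstimulated cells and no cells with TNF alone were used here, so every value with TNF is relative to IL4+IL13.

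After filtering, 1386 of 1524 wells remained, with 357 and 333 cells of mouse 1 and mouse 2 in IL4+IL13 and 347 and 349 in IL4+IL13+TNF. The median cell held 477871 and 464673 fragments in the 2 treatments. Each plate held 1 mouse and both treatments in separate rows, so treatment and plate row cannot be told apart. Each mouse had its own plates, and the paper describes 2 independent experiments, so mouse, plates and experiment cannot be told apart either. The list of 8 macrophage markers summed to between 15498 and 27261 CPM (counts scaled to a total of 1000000 per sum of cells), with 6 or 7 genes in most cells, and *Lyz2* was found in every cell. The lists for mast cells and basophils, neutrophils, eosinophils, platelets, fibroblasts and lymphocytes summed to at most 11.1 CPM in any mouse and treatment. The dendritic cell list moved with TNF, from 8.56 and 12.9 CPM to 29.9 and 204 CPM. Of its 6 genes, *Flt3* alone was found in most cells, 90.5% to 94.9% of each set. Nearly all of the last value was *Ccr7*, and its cells are described with *Ltc4s*.

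The cyclooxygenases Ptgs1 and Ptgs2 (COX-1 and COX-2) turn free arachidonic acid into prostaglandin H2, COX-1 as the form most cells keep and COX-2 as the form that inflammatory signals induce. Terminal synthases then shape the product: Hpgds makes prostaglandin D2, Ptges makes prostaglandin E2 and Tbxas1 makes thromboxane A2. Hpgd, 15-hydroxyprostaglandin dehydrogenase, takes the first step in inactivating prostaglandin E2 and other prostaglandins. In the other branch Alox5, 5-lipoxygenase, works with its membrane partner Alox5ap (FLAP) to make leukotriene A4, and Ltc4s joins it to glutathione to give leukotriene C4. Alox15, another lipoxygenase, is a known IL4-induced gene of some macrophages.

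Promoters of the 3 genes with the largest differences in level are shown here, since their transcripts moved in opposite directions. They are the 250 bases before the RefSeq start site in the build GRCm38.p6, which mm10 also denotes, and 8 of the 10 genes matched the promoter table. *Ptgs2* lies on the forward strand of chromosome 1 (chr1:150100031-150108227) and *Hpgd* on the forward strand of chromosome 8 (chr8:56294585-56321043). *Hpgds* lies on the reverse strand of chromosome 6 (chr6:65117293-65144908). Capitals mark matches, on either strand, to the motifs for NF-kB (GGGNNNNNCC), STAT6 (TTCNNNNGAA), AP-1 (TGANTCA), the cyclic AMP response (TGACG), the TATA box (TATAAA), PU.1 (GAGGAA) and C/EBP (TTGCGCAA), the last added after the sequences were seen.
Ptgs2, chr1:150099781-150100030, forward: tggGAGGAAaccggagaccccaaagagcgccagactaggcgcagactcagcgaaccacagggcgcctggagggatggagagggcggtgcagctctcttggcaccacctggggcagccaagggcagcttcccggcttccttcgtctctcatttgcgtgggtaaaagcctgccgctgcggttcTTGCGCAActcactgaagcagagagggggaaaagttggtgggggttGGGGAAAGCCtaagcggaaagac
Hpgd, chr8:56294302-56294551, forward: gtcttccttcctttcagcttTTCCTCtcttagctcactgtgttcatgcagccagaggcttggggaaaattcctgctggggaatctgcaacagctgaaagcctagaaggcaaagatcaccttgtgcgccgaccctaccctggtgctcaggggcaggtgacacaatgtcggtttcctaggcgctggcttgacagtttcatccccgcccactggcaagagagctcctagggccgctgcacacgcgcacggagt
Hpgds, chr6:65144731-65144980, reverse: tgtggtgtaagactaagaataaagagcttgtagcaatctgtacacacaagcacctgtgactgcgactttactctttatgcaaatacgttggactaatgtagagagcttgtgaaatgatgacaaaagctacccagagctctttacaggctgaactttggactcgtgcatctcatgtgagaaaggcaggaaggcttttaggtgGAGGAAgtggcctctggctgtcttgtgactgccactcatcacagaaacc
The *Ptgs2* stretch held an NF-kB match 23 to 14 bases before the start, a C/EBP match 69 to 62 bases before it and a PU.1 match 247 to 242 bases before it. The *Hpgd* and *Hpgds* stretches held 1 match each, to PU.1. Of all 32851 promoters of the same length, 45.8% held the NF-kB motif, 23.3% the PU.1 motif and 0.164% the C/EBP motif, so the NF-kB and PU.1 matches are common ones. Among the 8 genes the NF-kB motif matched 3, *Ptgs2*, *Ptges* and *Alox5*, the last of them lower with TNF in both mice. The PU.1 motif matched 7 of the 8, all but *Ltc4s*, and the C/EBP motif matched *Ptgs2* only. The STAT6 motif, in 5.85% of promoters, matched those of *Ptges* and *Tbxas1* among the 8 genes, AP-1 (6.75%) and the TATA box (12.4%) matched *Tbxas1* only, and the cyclic AMP motif (17.8%) matched none. Start sites in the count table lay 0, 33 and 178 bases from the RefSeq start for *Ptgs2*, *Hpgd* and *Hpgds*. For *Hpgd* the count table's start lay after the RefSeq start, and for *Hpgds* before it. The last 178 bases of the *Hpgds* stretch thus lie within the gene as counted, with its PU.1 match 49 to 44 bases before the RefSeq start.

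The comparison asked how TNF moved the transcripts of these enzymes in macrophages that also received IL4+IL13. *Hpgd*, *Hpgds* and *Alox5ap* were lower with TNF and *Ptgs2* and *Tbxas1* were higher, each in both mice and on all 4 plates. *Ptgs1*, *Alox5* and *Ltc4s* were also lower in both mice and on all 4 plates, so this agreement does not set the 5 genes apart. The counts of all cells of a mouse and treatment were added up, and these 4 sums were tested with edgeR's quasi-likelihood test across 17034 genes, with Benjamini-Hochberg adjustment and a threshold of 0.05. In that fit, with treatment as the only term, 0 of the 9 enzymes that passed the low-count filter were called, against 0.00587% of all genes. Of the 9, 5 had an unadjusted p under 0.05, against 8.1% of all genes, and DESeq2 called 4 of them (*Hpgd*, *Hpgds*, *Ptgs2* and *Alox5ap*), against 3.89% of genes. The series description gives 2 mice and the sample titles number each treatment 1 or 2, and this number was taken as the mouse, which the titles do not spell out. The call of each enzyme below rests on that reading: with the number as a block edgeR called 5 of 9, against 3.82% of genes. Of these, *Hpgd*, *Hpgds* and *Alox5ap* fell (1.88% of genes fell) and *Ptgs2* and *Tbxas1* rose (1.94% of genes rose). Below, "rose" and "fell" refer to the fit with the block. In the same cells, a list of 8 NF-kB target and inflammatory genes, among them *Clec4e*, all rose. *Clec4e* was the single gene called without the block. Of a list of 6 IL4 response genes, 0 rose and 3 fell (1.88% of genes fell). The list was not uniform: *Arg1* and *Chil3* were higher with TNF in both mice, short of the threshold, and the other 4 were lower in both. Both lists were chosen with earlier results of these data known, so they describe the cells and are no independent check.

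**Figure D1:**
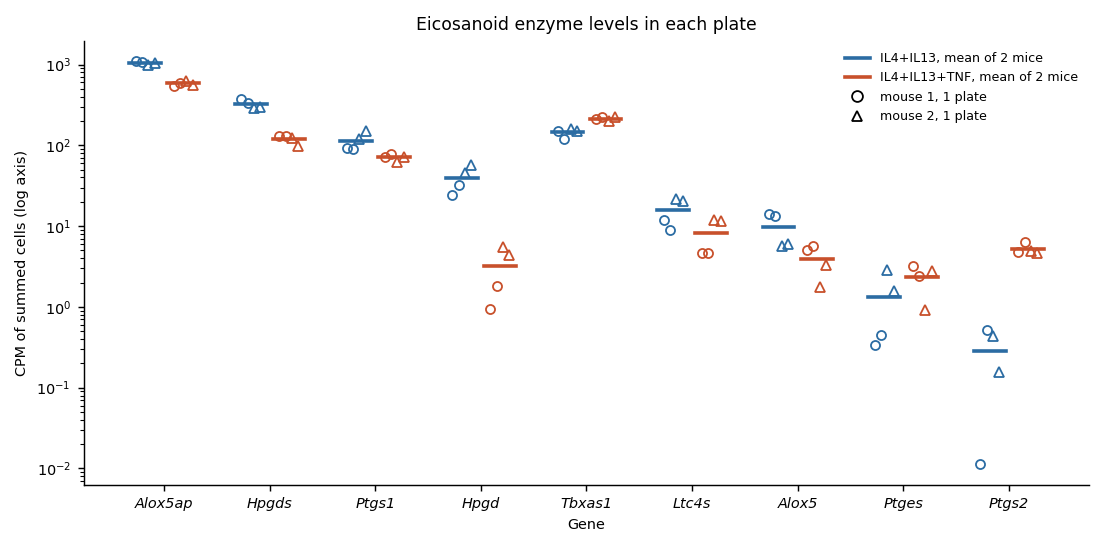
Level of 9 eicosanoid enzymes in CPM of the summed cells, on a log axis, for each of the 4 plates (circles mouse 1, triangles mouse 2) with IL4+IL13 in blue and IL4+IL13+TNF in orange; lines are means of 2 mice. The *Hpgd* points with TNF lie between 0.9495 and 5.55 CPM and those without between 24.5 and 56.5 CPM, and the *Ptgs2* points separate the other way.

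Per unit of transcript length, as TPM (counts divided by exon length and scaled to the same total), the order of the enzymes ran over orders of magnitude. With IL4+IL13, *Alox5ap* led at 1472 ± 42.5 TPM (SD, n = 2 mice), followed by *Hpgds* at 101.3 ± 10.6 and *Ptgs1* at 58.4 ± 17.05 TPM. *Hpgd* at 47.1 ± 20.1, *Tbxas1* at 32.1 ± 3.99 and *Ltc4s* at 31.3 ± 15.7 TPM came next, and neighbors from *Ptgs1* down to *Ltc4s* overlapped between mice. *Alox5* (4.70 ± 2.57 TPM), *Ptges* (0.680 ± 0.684), *Ptgs2* (0.125 ± 0.0170) and *Alox15* (0.0323 ± 0.0267) were the least abundant. With TNF the order became *Alox5ap* (796 ± 26.0 TPM), *Tbxas1* (45.5 ± 0.753), *Hpgds* (36.2 ± 3.98) and *Ptgs1* (35.4 ± 3.09), so the thromboxane synthase transcript passed the prostaglandin D synthase transcript. *Hpgd* moved from the fourth place to the sixth, and its range with TNF overlapped that of *Ptgs2* below it.

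Of the cyclooxygenases, *Ptgs2* rose and *Ptgs1* did not pass the threshold with or without the block or in DESeq2. With IL4+IL13, *Ptgs2* summed to 0.264 CPM in mouse 1 and 0.308 CPM in mouse 2, and with TNF it summed to 5.64 and 4.84 CPM. The treatments did not overlap, and the mice were alike within each. The difference was 19.5-fold, a log2 fold change of 4.29 ± 0.39 (SE), with an adjusted p of 0.135 in edgeR without the block and 0.00870 with it. Within plates the log2 ratio of CPM, with 0.5 added to each, was between 2.54 and 3.36. Even so the level with TNF was low: 2.38 and 2.04 TPM, against 37.6 and 33.2 TPM of *Ptgs1* in the same cells. *Ptgs1* was thus 410 and 513 times as abundant as *Ptgs2* per length with IL4+IL13, and 15.8 and 16.2 times with TNF.

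*Ptgs2* was carried by few cells. With TNF, 7, 8, 6 and 6 cells on plates 2, 3, 4 and 5 exceeded 50 CPM, against 0, 1, 0 and 0 cells with IL4+IL13. On these plates the cell with the most *Ptgs2* fragments with TNF gave between 21.8% and 32.6% of them. The highest level in a cell, not necessarily the same one, was 159 to 361 CPM. At an equal depth of 339000 fragments per cell, *Ptgs2* was found in 1.81% and 9.71% of cells of the 2 mice with IL4+IL13 and in 10.9% and 12.4% with TNF, an increase of 5.90 ± 4.51 percentage points (SD over 2 mice). The exact permutation test over 4 values, unpaired and two-sided, gave 0.333, the smallest p that 4 values allow. With IL4+IL13 the share was 0.602% and 3.01% on plates 2 and 3 of mouse 1 and 14.8% and 4.08% on plates 4 and 5 of mouse 2, so plate 4 stood apart and plate 5 was close to plate 3. Before thinning, plate 4 held 32 of the 38 cells of mouse 2 with a fragment, and 36 of the 38 had only 1 or 2 fragments. Counting only cells with at least 5 fragments, the shares were 0.602% and 0 with IL4+IL13 and 5.61% and 5.23% with TNF. For 0 of 309 cells, 3 divided by the number of cells gives a limit of 0.971%. The source of the cells with 1 or 2 fragments was not tested.

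*Ptgs1* was broadly present, with 91.7 and 134 CPM with IL4+IL13 and 75.5 and 66.7 CPM with TNF. The treatments did not overlap, but mouse 1 differed by a log2 ratio of -0.28 and mouse 2 by -1.003. The fitted log2 fold change was -0.57 ± 0.24 (edgeR adjusted p = 0.649, and 0.191 with the block). It was found in 75.0% ± 5.13 (SD, n = 2) of cells with IL4+IL13 and 66.0% ± 2.78 with TNF. Since *Ptgs1* was so much more common than *Ptgs2*, the share of cells with either cyclooxygenase was 71.4% and 79.3% with IL4+IL13 and 70.6% and 68.3% with TNF. Both were found together in 8.25% and 8.17% of cells with TNF, where the product of the shares gives 7.40% and 7.95%.

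Among the terminal synthases *Hpgds* fell and *Tbxas1* rose. *Hpgds* summed to 356 and 296 CPM with IL4+IL13 and to 129 and 111 CPM with TNF, with no overlap. It was 2.54-fold lower with TNF, with a log2 fold change of -1.35 ± 0.20 and an edgeR adjusted p of 0.204 without the block and 0.00798 with it. The 4 plates were close to each other, with log2 ratios from -1.59 to -1.25. The median cell went from 303 and 210 CPM to 79.1 and 59.8 CPM, and the share of cells with a fragment went from 98.5% and 93.2% to 84.8% and 82.0%. At 5 or more fragments the shares were 88.9% ± 8.95 and 67.8% ± 3.49.

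*Tbxas1* summed to 135 and 156 CPM with IL4+IL13 and to 217 and 211 CPM with TNF, again with no overlap. The difference was 1.57-fold (log2 fold change 0.65 ± 0.16, edgeR adjusted p = 0.377 without the block, 0.0480 with it, and 0.120 in DESeq2). Within plates the log2 ratios were between 0.31 and 0.87. The median cell rose from 98.95 and 94.0 CPM to 186 and 156 CPM, and the share of cells with a fragment was 91.3% ± 0.882 with IL4+IL13 and 96.9% ± 0.254 with TNF.

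*Ptges*, the inducible prostaglandin E synthase, gave no common direction in its summed level. It summed to 0.393 and 2.24 CPM with IL4+IL13 and to 2.76 and 1.87 CPM with TNF, so the treatments overlapped. On the 4 plates the log2 ratio ran from -1.25 to 2.15, and the fitted change was 0.92 ± 0.84 (edgeR adjusted p = 0.888, and 0.421 with the block). With IL4+IL13 in mouse 2, 3 cells exceeded 50 CPM, the highest at 283 CPM. At equal depth *Ptges* was found in 4.22% and 4.53% of cells with IL4+IL13 and in 7.92% and 6.54% with TNF. This share was higher in both mice (unpaired exact permutation p = 0.333, the smallest that 4 values allow). Per length *Hpgds* outnumbered *Ptges* 28.7 and 36.2 times with TNF. Cells with *Ptgs2* and *Ptges* together were few, 7 of 303 and 6 of 306 with TNF, where the product of the shares gives 2.61 and 2.48. *Ptges* was found in 21.2% and 15.8% of the *Ptgs2* cells and in 6.30% and 5.22% of the others.

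**Figure D2:**
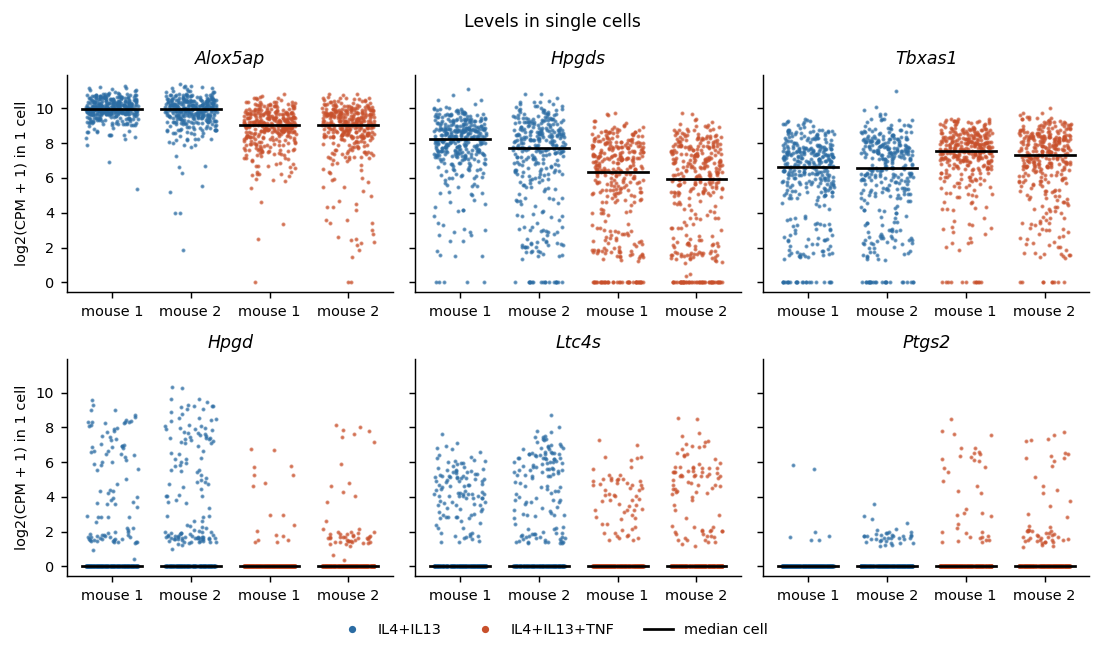
Level of 6 enzymes in each of the 1386 cells as log2(CPM + 1), by mouse and treatment (blue IL4+IL13, orange IL4+IL13+TNF; black line, median cell). *Alox5ap*, *Hpgds* and *Tbxas1* are shifted in most cells, whereas the median cell is at 0 for *Hpgd*, *Ltc4s* and *Ptgs2* in every mouse and treatment.

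*Hpgd*, the prostaglandin-inactivating enzyme, showed the largest decrease of the set. It summed to 28.2 and 50.6 CPM with IL4+IL13 and to 1.42 and 4.95 CPM with TNF. The treatments did not overlap, and mouse 2 was above mouse 1 in both. The level was 11.6-fold lower with TNF, a log2 fold change of -3.54 ± 0.69 with an edgeR adjusted p of 0.277 without the block, and of -3.72 ± 0.29 with an adjusted p of 0.00861 with it. The log2 ratios within plates were between -4.11 and -2.93.

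*Hpgd* was also patchy between cells. With IL4+IL13 the median cell had none, and 18 of 357 and 17 of 333 cells, the highest 5%, held 67.2% and 60.4% of the summed per-cell CPM. Single cells reached 769 and 1280 CPM. At equal depth *Hpgd* was found in 24.1% and 35.9% of cells (95% exact binomial intervals 19.6 to 29.1 and 30.6 to 41.5) with IL4+IL13 and in 3.30% and 9.80% (1.59 to 5.99 and 6.71 to 13.7) with TNF. The share was thus 23.5 ± 3.76 percentage points lower with TNF (unpaired exact permutation p = 0.333, the smallest that 4 values allow). At 5 or more fragments the difference was 15.1 points, from 17.9% ± 3.996 to 2.79% ± 0.677. Cells over 50 CPM numbered 43 and 55 with IL4+IL13 and 4 and 8 with TNF, so fewer cells carried the transcript at a high level in both mice.

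**Figure D3:**
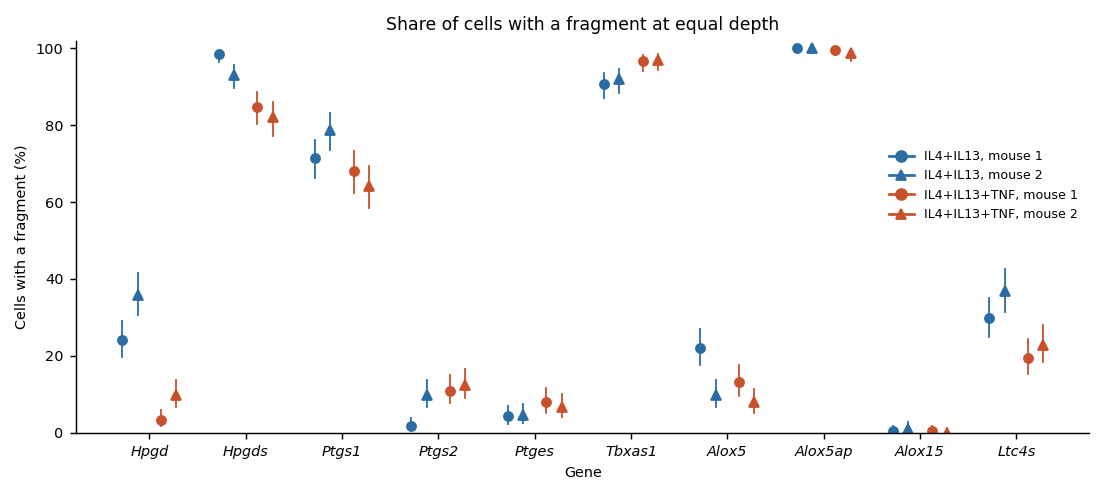
Percent of cells with at least 1 fragment of each enzyme after thinning every cell to 339000 fragments, by mouse (circles 1, triangles 2) and treatment, with 95% exact binomial intervals that cover counting error only. *Hpgd* is lower with TNF in both mice, and *Alox5ap* is near 100% in all 4 sets.

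*Hpgd* and *Ptgs2* stand for the inactivation and the induced synthesis of prostaglandins, and they moved in opposite directions over the summed cells. Per length the *Hpgd* level was 32.9 and 61.3 TPM against 0.113 and 0.137 TPM of *Ptgs2* with IL4+IL13, and 1.63 and 5.69 TPM against 2.38 and 2.04 TPM with TNF, so in mouse 1 *Ptgs2* was the higher of the pair with TNF and in mouse 2 *Hpgd* was. Within a mouse and treatment the pair showed no common relation across cells. Spearman's rho was -0.033 and 0.095 in mouse 1 and mouse 2 with IL4+IL13, over 332 and 309 cells, and -0.064 and 0.045 with TNF, over 303 and 306 cells. The mean was 0.011 ± 0.073 (SD over 4 sets), negative in mouse 1 (-0.049) and positive in mouse 2 (0.070). These points share depth and libraries, and the weak values are given as a description.

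At equal depth both transcripts were found in 1 of 332 and 15 of 309 cells with IL4+IL13 and in 0 of 303 and 5 of 306 cells with TNF. The product of the shares gives 1.45, 10.8, 1.09 and 3.73 cells. Plate 4 held 12 of the 15 cells, where the product gives 8.59. With at least 5 fragments of each, and no thinning, 1 of 1386 cells held both, among 152 cells with *Hpgd* and 42 with *Ptgs2*. The product of the shares gives 1.70 cells, and no difference from it was detectable at these counts. Low counts were common for each transcript by itself: 139 of the 303 cells with any *Hpgd* fragment and 87 of the 138 with any *Ptgs2* fragment had 1 or 2. How many of the cells with both had such low counts was not counted.

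**Figure D4:**
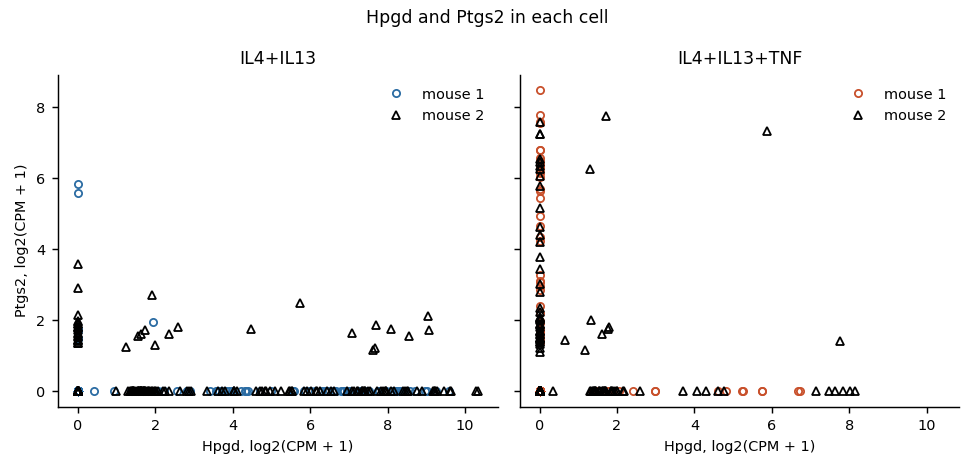
*Hpgd* against *Ptgs2* in each cell as log2(CPM + 1), for IL4+IL13 (left) and IL4+IL13+TNF (right), circles mouse 1 and triangles mouse 2. Most cells have neither transcript and lie at the origin. Cells with only 1 of the transcripts lie along its axis, and the cells off both axes are mostly of mouse 2 at low *Ptgs2*.

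In the leukotriene branch *Alox5ap*, the most abundant transcript of the set, fell. It summed to 1087 and 1004 CPM with IL4+IL13 and to 571 and 598 CPM with TNF, with no overlap and close agreement between mice. The decrease was 1.68-fold (log2 fold change -0.75 ± 0.14, edgeR adjusted p = 0.265, 0.0210 with the block, and 0.0257 in DESeq2). Nearly every cell kept the transcript, 100% of cells in both mice with IL4+IL13 and 99.7% and 98.7% with TNF, while the median cell went from 1012 and 982 CPM to 524 and 539 CPM. In *Alox5ap* (chr5:149264767-149288153, forward strand), 189 exon bases overlap a gene on the other strand, and fragments there could not be assigned by strand. *Tbxas1* (chr6:38875404-39084585, forward strand), *Ptgs1* and *Ltc4s* had such overlaps of 144, 148 and 268 bases.

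*Alox5* itself was far rarer and differed between mice. It summed to 13.6 and 5.81 CPM with IL4+IL13 and to 5.40 and 2.54 CPM with TNF, lower with TNF in both mice and on all 4 plates (log2 ratios -1.45 to -0.76). Mouse 1 with TNF lay just below mouse 2 without it. The fitted log2 fold change was -1.20 ± 0.59, with an edgeR adjusted p of 0.706 without the block and 0.0616 with it. Leaving out the 5 wells with over 2000000 fragments, 4 of them with TNF and chosen after seeing the data, brought the latter to 0.0413 in edgeR, which is given as a description. It was found in 21.99% and 9.71% of cells with IL4+IL13 and in 13.2% and 7.84% with TNF (exact permutation p = 0.667). *Alox5ap* exceeded *Alox5* per length by 230 and 500 times with IL4+IL13 and by 306 and 681 times with TNF.

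*Ltc4s* was lower with TNF within each mouse, but the mice lay apart. It summed to 10.5 and 21.1 CPM with IL4+IL13 and to 4.62 and 11.7 CPM with TNF, so mouse 2 with TNF was above mouse 1 without it. The fitted log2 fold change was -0.86 ± 0.56 (edgeR adjusted p = 0.808, and 0.0794 with the block), and the log2 ratios within plates were -1.28 to -0.79. The share of cells with a fragment was 33.4% ± 5.002 with IL4+IL13 and 21.2% ± 2.41 with TNF.

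A small group of cells touched this value. Among all cells, 12 had over 50 CPM of *Ccr7*, a chemokine receptor of migrating dendritic cells, and 11 of them were of mouse 2 with TNF and 1 of mouse 1 with TNF. The group was chosen after its values were seen. In mouse 2 with TNF, its 11 cells held 136 CPM of *Ltc4s*, against 7.67 CPM in the other cells, and 36.4% of the *Ltc4s* fragments. The same cells had 0 fragments of *Hpgd*, *Ptgs2*, *Ptges* and *Alox5*, and only 0.892 CPM of *Hpgds* against 114 CPM in the others. Their *Lyz2* was 3252 CPM against 23644 CPM and their *Csf1r* 227 against 1354 CPM. Both were still found in all 11 cells, *C1qa* in 10 and *Adgre1* in 9 of them. Their *Flt3*, of the dendritic cell list, was 8.92 CPM against 6.93 CPM in the others. What type of cell they are was not tested. Without the 12 cells, all of them with TNF, the log2 fold change of *Ltc4s* with the block was -1.30 ± 0.20 in place of -0.92 ± 0.20. Leaving out cells high in *Ltc4s* from the TNF side alone can move the value only this way, so it describes the weight of these cells and supports no call.

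*Alox15* was close to absent. It had 3 and 10 fragments in all cells of the 2 mice with IL4+IL13 and 4 and 2 with TNF, and it was left out of the test by the low-count filter. At equal depth it was found in 1 of 332 and 3 of 309 cells with IL4+IL13, in 1 of 303 with TNF in mouse 1 and in 0 of 306 in mouse 2, which allows a share of up to 0.980%. No difference between treatments was detectable at this depth.

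Cells were also counted by whether they held transcripts for every step of a route at equal depth, a description chosen after the shares were known. A cyclooxygenase with *Hpgds*, the prostaglandin D2 route, was found in 70.2% and 74.4% of cells with IL4+IL13 and in 60.1% and 55.6% with TNF. A cyclooxygenase with *Tbxas1*, the thromboxane route, was found in 65.4% and 73.1% and then in 69.3% and 66.3%, without a common direction. A cyclooxygenase with *Ptges* was found in at most 5.61% of cells in any set. The leukotriene C4 route, with *Alox5*, *Alox5ap* and *Ltc4s* in 1 cell, was found in 8.43% and 3.56% of cells with IL4+IL13 and 2.64% and 1.63% with TNF. The product of the shares gives 6.56% and 3.58% with IL4+IL13 and 2.56% and 1.77% with TNF.

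Across cells the enzymes were only weakly related to each other. Over the 45 pairs, the mean Spearman rho of the mouse and treatment sets, 4 for most pairs and 3 for those with *Alox15*, ran from -0.090 to 0.116 with a median of 0.021. The 3 pairs over 0.1 were *Ptgs1* with *Tbxas1* (0.116, range 0.089 to 0.165), *Hpgds* with *Alox5ap* (0.111, 0.055 to 0.197) and *Hpgd* with *Hpgds* (0.107, 0.064 to 0.138). These pairs were computed in the thinned cells. For the genes most like each enzyme, CPM without thinning was used in all 1386 cells, so the values are not on the same measure. By the mean of the 4 sets among 10652 genes, they were *Mgl2* (0.306), *Pld4* (0.304) and *Tgfbi* (0.301) for *Alox5ap*. For *Hpgds* they were *Camk1* (0.241), *Gas6* (0.238) and *Wwp1* (0.228). For *Tbxas1* they were *Ctsz* (0.210), *H2-DMa* (0.206) and *Itgb2* (0.196), and for *Ptgs1* *Emb* (0.185), *Ly6e* (0.174) and *Hmgn2* (0.168). For *Hpgd* they were *Serinc3* (0.168), *Axl* (0.150) and *Ms4a6b* (0.150), and for *Ltc4s* *Foxred2* (0.126), *Tspan3* (0.126) and *Wdr37* (0.118). In the thinned cells *Hpgd* with *Ms4a4a* and *Ednrb* reached 0.084 and 0.066, and *Ptgs2* with *Tnf* -0.010.

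The wider pathway was taken from 5 lists of 59 other genes, of which 37 passed the low-count filter. None was called without the block, against 0.00587% of all genes, and 8 of the 37 had an unadjusted p under 0.05, against 8.1% of all genes. DESeq2 called 3 of the 37, *Pla2g7*, *Lpcat2* and *Ptger4*, against 3.89% of all genes. With the block 4 rose (1.94% of all genes rose) and 1 fell (1.88% of all genes fell). The median log2 fold change of the 37 was 0.08, against 0.0038 over all genes and -0.75 over the 9 enzymes. Of the 12 tested genes of arachidonate release and reuse, 3 rose, against 1.94% of all genes. *Pla2g7*, the platelet-activating factor acetylhydrolase, was at 10.0 and 10.9 CPM with IL4+IL13 and at 63.4 and 65.1 CPM with TNF (log2 fold change 2.72 ± 0.19, edgeR adjusted p = 0.135, and 0.00576 with the block). *Lpcat2*, which makes platelet-activating factor, went from 10.5 and 16.5 CPM to 76.8 and 85.2 CPM (2.68 ± 0.28, edgeR adjusted p = 0.135 and 0.00730). *Anxa1*, annexin A1, went from 3115 and 2402 CPM to 4879 and 3130 CPM (0.63 ± 0.27, edgeR adjusted p = 0.657 and 0.0296), so mouse 1 without TNF and mouse 2 with it were nearly level. The phospholipase that frees arachidonate, *Pla2g4a*, was at 36.6 and 19.3 CPM and at 53.9 and 36.8 CPM (0.79 ± 0.39, edgeR adjusted p = 0.710 and 0.0532).

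Downstream, 1 of 8 tested receptors rose, against 1.94% of all genes. *Ptger4*, the EP4 receptor of prostaglandin E2, went from 12.2 and 12.7 CPM to 32.4 and 36.7 CPM (log2 fold change 1.57 ± 0.20, edgeR adjusted p = 0.184, and 0.0137 with the block). The EP2 receptor gene *Ptger2* was at 14.8 and 26.3 CPM and at 18.8 and 24.9 CPM, with a fitted change of 0.18 ± 0.34. Of the 6 tested leukotriene and lipoxygenase genes, *Mgst3*, a glutathione transferase, fell from 249 and 170 CPM to 121 and 102.5 CPM (-0.81 ± 0.25, edgeR adjusted p = 0.501 and 0.0359). *Lta4h*, which makes leukotriene B4 and is the alternative to *Ltc4s* at the branch point, was at 76.4 and 71.2 CPM and at 76.7 and 59.8 CPM (-0.019 ± 0.21). None of the 9 tested prostanoid enzymes outside the set and none of the 2 transporters was called, with or without the block. With the block 3.82% of all genes were called. The other prostaglandin E synthases *Ptges2* and *Ptges3* differed by 0.08 ± 0.24 and 0.05 ± 0.19 on the log2 scale.

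**Figure D5:**
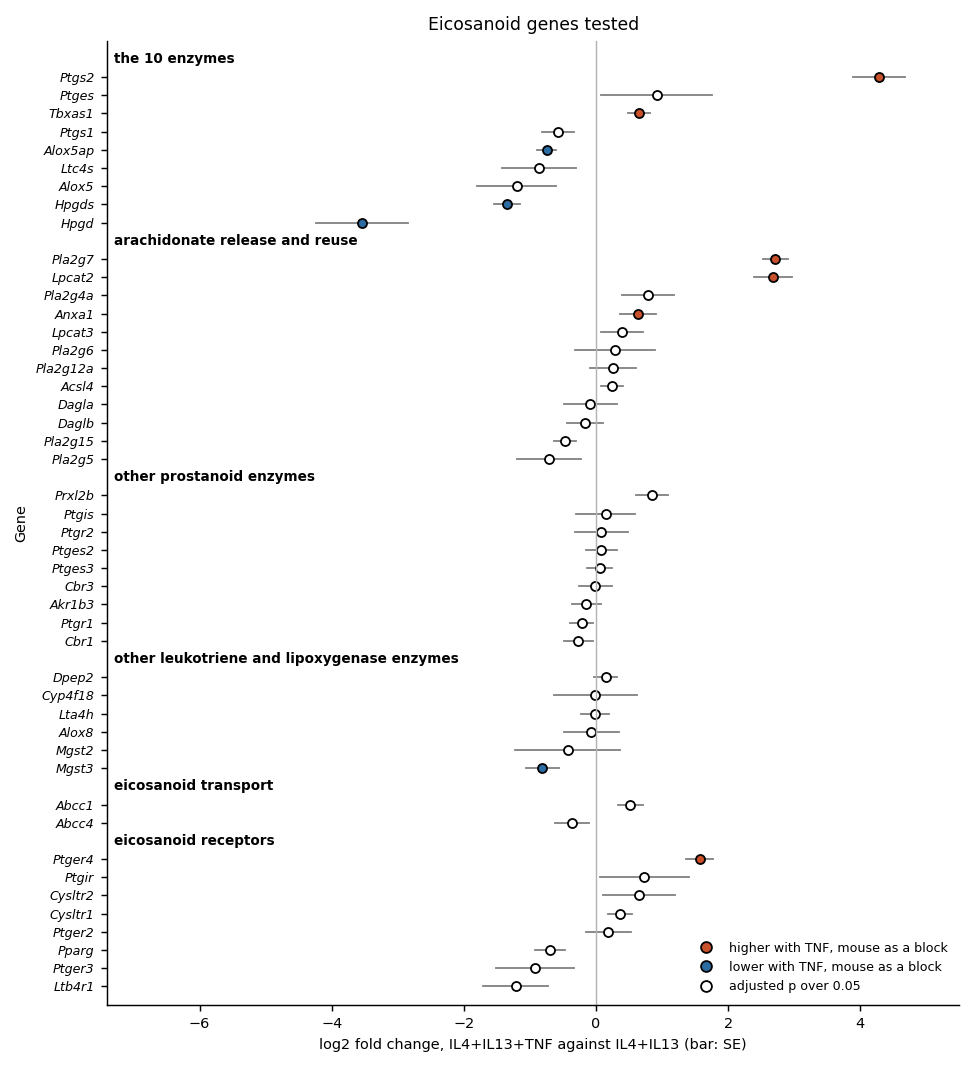
Log2 fold change of IL4+IL13+TNF against IL4+IL13 with its SE, from edgeR without the block, for the 9 tested enzymes and 37 other eicosanoid genes by list. Filled points pass an adjusted p of 0.05 with the mouse as a block (orange higher, blue lower with TNF). They are 5 of the enzymes and 5 of the other genes, against 3.82% of all genes.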

How the data were processed

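BMDMs of 2 mice were sequenced as single cells with Smart-seq2. Per the paper's methods, the authors aligned fragments to mm10 with gsnap and counted unique fragments per Ensembl 98 gene with featureCounts 1.6.3. The deposited values are raw counts of fragments per gene and well, with PCR copies included and the strand unused. 8 columns that match no label and 4 samples without a mouse were not used.

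Wells more than 3 median absolute deviations below their plate's median in the log of total fragments or genes, or above it in mitochondrial or spike-in share, were left out. The counts of all cells of 1 mouse and treatment were added up, and edgeR 4.0.16 was run on the 4 sums (glmQLFTest, TMM, Benjamini-Hochberg adjustment), with genes in at least 5% of the cells of either treatment that passed filterByExpr and with treatment as the only term. The mice were taken to pair the samples: the series description gives 2 mice, and the titles number both treatments 1 or 2 without naming a mouse. Samples with the same number lie on the same plates. Departures of such samples from their treatment means correlated with r = 0.562 across 17034 genes. Shared plates or a shared experiment could give the same correlation, so it cannot show that the number is the mouse. On 4 sums the fit with the block has few residual degrees of freedom. Since edgeR gives no SE, each SE of its fits is the absolute log2 fold change divided by the square root of the test's F statistic. Such an SE thus carries the same information as the test. Alternatives were the mouse as a block, DESeq2 1.42.0, limma 3.58.1 on log2(CPM + 1), other filters and scaling, and each sum left out. The tests were tested on simulated data. CPM is relative to all fragments of genes, without spike-ins. Shares of cells were computed after thinning to 339000 fragments, in 1250 cells, with exact binomial intervals, and without molecular identifiers intervals and floors cover counting error only. Python 3.11.15, numpy 2.4.6, pandas 2.3.3, scipy 1.17.1 and R 4.3.3 were used. No doublet caller was run on the sorted cells.

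The 10 enzymes, the lists and the tests were chosen with earlier results of these data known. The text names the 10 enzymes, the list genes past the threshold with or without the block or needed beside them, and the 3 genes most like each enzyme found in at least 25% of cells. Promoters are from RefSeq (GRCm38.p6).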

Additional observations from a re-analysis of the deposited data

How the results depend on the processing

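Without the block 1 gene was called. The block gave 651, DESeq2 598, and limma on mean CPM per cell 0, where 1532 had an unadjusted p under 0.05. Leaving out 1 of the 4 sums gave 4 to 30 genes, and the sum left out for the latter was mouse 1 with TNF. With the replicate block, leaving out the 12 *Ccr7* cells gave 706 genes and the 5 deepest wells 1038, both chosen after seeing the data and taken mostly from the TNF side, so that calls gained there support nothing. Of the enzymes 0 were called without the block, 5 with it, 4 in DESeq2, and 6 with it in either of the added alternatives. *Hpgd* passed the threshold at -3.72 with the block, -3.55 in DESeq2, -3.69 with the block without *Ccr7* cells and -3.70 without the deepest wells. *Ptgs2* passed it at 4.28 with the block, 4.28 in DESeq2, and 4.31 with the block in either added alternative. With limma on log2(CPM + 1), which understates low genes, it was 2.26, a 4.80-fold difference. Leaving out 1 sum left *Hpgd* between -4.68 and -2.91 and *Ptgs2* between 4.16 and 4.41 on the log2 scale, neither past the threshold. *Ptges* ran from 0.15 without mouse 1 to 2.64 without mouse 2, both with IL4+IL13. *Alox5* ran from -1.87 without mouse 1 with TNF to -0.45 without mouse 1 with IL4+IL13, and *Ltc4s* from -1.66 to -0.29 without mouse 2 with TNF and with IL4+IL13. The *Hpgd* share difference was -15.1 points at 5 or more fragments, and -26.1 and -20.8 without mouse 1 and mouse 2. The *Ptgs2* share difference was 2.71 and 9.08 points without mouse 1 and mouse 2. The mean *Hpgd* and *Ptgs2* rho was 0.070 and -0.049 without mouse 1 and mouse 2, and -0.0087 without thinning. No fold change of the 9 tested enzymes changed sign under any alternative run. The cause of these differences was not tested, apart from the fewer samples of the fits that leave out a sum, where the spread of the lone sum is taken from the other treatment. The exact test of a share treats its 4 values as unpaired and cannot go below 0.333. Exchanged within 2 mice it could not go below 0.5.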
